A study of Homo sapiens with 6 samples.

Results

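The insulin receptor substrates IRS1, IRS2 and IRS4, the insulin and insulin-like growth factor (IGF) receptors INSR, IGF1R and IGF2R, and the ERBB receptors EGFR, ERBB2 and ERBB3 were followed in HEK-293 cells overexpressing circANRIL. These 9 genes were taken, out of 20044 genes with a symbol on the array, by their annotated symbols. They were selected on measured values, since the difference between the circANRIL and vector control arrays was known when the list was drawn up. That difference is therefore given for them as a description and without a test. All 16 probes annotated to the 9 symbols were examined. Transcript levels came from Illumina HumanHT-12 v4 BeadChips, of which 3 were hybridised with RNA of HEK-293 lines with stable circANRIL overexpression from pBI-CMV2 and 3 with RNA of lines carrying the pBI-CMV2 vector control. HEK-293 is an established human embryonic kidney cell line. In both groups the vector also encodes a green fluorescent protein, and the cells were made resistant to G418 by a second, neomycin-encoding vector. circANRIL itself, a circular RNA of ANRIL exons, has no probe across its junction that was used here, so its level was not checked on the arrays.

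Insulin and IGF receptors are tyrosine kinases that phosphorylate docking proteins of the IRS family, which then recruit PI3-kinase and GRB2 and so open the AKT and ERK routes. ERBB receptors bind ligands of the EGF and neuregulin families and pair with each other, and ERBB3, whose own kinase is weak, signals mainly through its partner ERBB2. IGF2R has no kinase and carries IGF2 and mannose 6-phosphate-tagged enzymes to lysosomes. IRS4 was first purified from HEK-293 cells and is known as a major insulin receptor substrate of this line.

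Levels are given as log2 of the background-corrected, quantile-normalized intensity, and a difference is the mean of the circANRIL arrays minus the mean of the vector control arrays on this scale. A probe counted as detected on an array at a detection p under 0.05 and was tested where it was detected on at least 3 of the 6 arrays, which 21191 of 47315 probes were. Of these, 17.7% were called, that is, passed an adjusted p under 0.05 with limma, 1965 as higher and 1788 as lower in circANRIL cells. Between 43.4% and 46.8% of all probes were detected per array, and arrays correlated at 0.980 to 0.990 within groups and at 0.946 to 0.968 between groups. Of 7 genes known from HEK-293 cells, 5 to 6 were detected on circANRIL arrays and 4 to 5 on vector control arrays. VIM, KRT8, NEFL and NEFM were found on all arrays and PAX2 on none. The summed linear level of these 7 genes was 6978 to 7465 on circANRIL arrays and 8916 to 12159 on vector control arrays. None of 5 endothelial markers was detected on any array, and of 5 measured leukocyte markers only CD14 and CD68 were. Summed levels include undetected genes, so the 5 undetected endothelial markers alone summed to 97.3 to 102. The 5 leukocyte markers summed to 569 to 815 on circANRIL arrays and to 499 to 534 on vector control arrays. Of 6 fibroblast markers, 1 to 4 were detected on circANRIL arrays and 2 to 3 on vector control arrays. All 6, detected or not, summed to 133 to 176 on circANRIL arrays and to 169 to 291 on vector control arrays. The part of these marker levels in the results below was not tested. In bulk RNA, fewer cells with a transcript and less transcript per cell cannot be told apart.

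The receptor substrates IRS2 and IRS4 stood at opposite ends of the 9 genes, at log2 differences of −2.27 and 2.42 in circANRIL cells. EGFR was higher by 0.75 and IGF2R lower by 0.62, while the groups overlapped for IRS1, INSR, ERBB2 and ERBB3. Of the 16 probes, 10 were tested and stood for 8 genes, and 5 of them were detected on all 6 arrays. IGF1R had no probe that could be tested. Of the 10 probes, 2 were among the higher calls and 2 among the lower, where 17.7% of all probes tested were called. This is given as a count only, since the contrast had served to choose the genes. The EGFR call did not hold when circANRIL array 2 or 3, or vector control array 1 or 3, was dropped. That of IGF2R did not hold when circANRIL array 2 was dropped. Flooring the background removed both calls. IRS1 was called only when vector control array 3 was dropped. The groups did not overlap for 4 of the 10 probes, against 35.7% of all probes tested. With 1 probe per gene, the one of highest mean level, the median difference of the 8 genes was 0.18 and that of all 12134 genes tested was −0.02. IRS2 and IRS4 were the 2 genes beyond a 2-fold difference, a size that 5.85% of all genes reached.

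**Figure D1:**
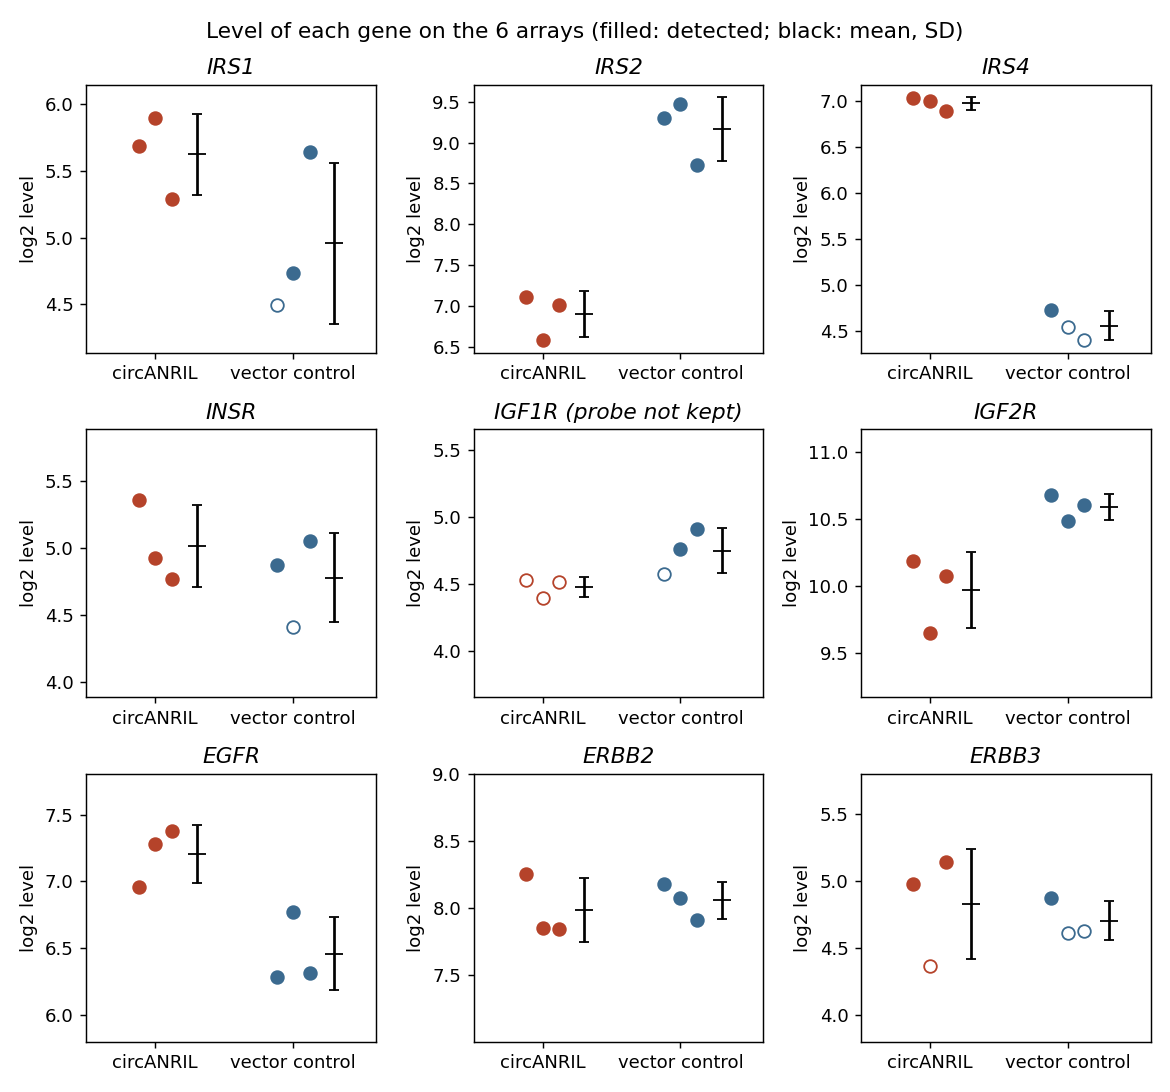
Log2 level of each gene on the 3 circANRIL arrays (left, red) and the 3 vector control arrays (right, blue), by its tested probe of highest mean level, or its 1 probe for IGF1R, with filled points for arrays on which the probe was detected and black bars for mean and SD. The groups are separate for IRS2, IRS4, IGF2R, EGFR and the untested IGF1R probe, and vertical axes differ between panels.

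IRS2, a docking protein needed for insulin action in liver and for the upkeep of beta cells, had levels of 7.11, 6.58 and 7.02 on the circANRIL arrays and of 9.30, 9.47 and 8.73 on the vector control arrays. All 3 circANRIL arrays lay far below all 3 vector control arrays. The group means were 6.90 ± 0.28 in circANRIL cells and 9.17 ± 0.39 in vector control cells (SD, n = 3 each), a difference of −2.27 with a standard error of 0.21. This corresponds to a level 4.81-fold lower in circANRIL cells. The same gap stood in the deposited signals before normalization, which were 124, 70.5 and 107 in circANRIL cells and 611, 721 and 488 in vector control cells.

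IRS4, an X-linked substrate with a narrow tissue distribution, had levels of 7.03, 6.99 and 6.89 on the circANRIL arrays and of 4.72, 4.54 and 4.40 on the vector control arrays. The circANRIL arrays were close together and all above the vector control arrays, of which only the first detected the probe. The means were 6.97 ± 0.07 in circANRIL cells and 4.56 ± 0.16 in vector control cells (SD, n = 3 each), and the difference was 2.42 with a standard error of 0.19. Deposited signals were 115, 98.6 and 96.9 in circANRIL cells and 9.77, 6.45 and 3.06 in vector control cells. The size of the fold is not well determined, because 2 of 3 vector control arrays were not above background. The methods name background reduction for the authors' normalized values, but none of these is negative and the lowest on any array is 73.6 to 75.0. With them the IRS4 difference was 1.06, and with a floored background it was 2.78.

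IRS1, the substrate that carries most insulin signalling in muscle, had levels of 5.68, 5.89 and 5.29 on the circANRIL arrays and of 4.50, 4.74 and 5.64 on the vector control arrays. The third vector control array lay among the circANRIL arrays, so the groups overlapped. The difference was 0.66 with a standard error of 0.26, and it ran between 0.43 without vector control replicate 1 and 1.00 without vector control replicate 3. The 3 substrates thus showed 1 lower level, 1 higher level and 1 overlap, and since they are read by different probes their levels were not ranked against each other.

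The promoters of the 2 substrates that differed most, and of IGF2R, are printed as the 250 bases before the annotated start, from RefSeq on GRCh38.p14, which held such a sequence for 8 of the 9 genes. Capitals mark GC boxes (GGGCGG on either strand, so also CCGCCC), E-boxes (CACGTG) and the core of the insulin response element (TGTTTTG, either strand), and overlapping GC boxes run together. The IRS2 promoter is at chr13:109786584-109786833 on the minus strand, that of IRS4 at chrX:108736564-108736813 on the minus strand and that of IGF2R at chr6:159968832-159969081 on the plus strand.
IRS2: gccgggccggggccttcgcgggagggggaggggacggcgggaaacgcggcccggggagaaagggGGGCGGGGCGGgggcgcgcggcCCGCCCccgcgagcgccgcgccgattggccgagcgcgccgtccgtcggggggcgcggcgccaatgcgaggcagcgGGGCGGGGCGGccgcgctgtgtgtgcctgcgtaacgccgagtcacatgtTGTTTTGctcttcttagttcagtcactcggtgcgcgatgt
IRS4: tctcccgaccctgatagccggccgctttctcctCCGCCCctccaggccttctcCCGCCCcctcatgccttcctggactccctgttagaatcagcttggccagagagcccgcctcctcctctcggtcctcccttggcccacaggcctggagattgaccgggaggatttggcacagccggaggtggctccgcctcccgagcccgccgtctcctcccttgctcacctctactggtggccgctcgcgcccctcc
IGF2R: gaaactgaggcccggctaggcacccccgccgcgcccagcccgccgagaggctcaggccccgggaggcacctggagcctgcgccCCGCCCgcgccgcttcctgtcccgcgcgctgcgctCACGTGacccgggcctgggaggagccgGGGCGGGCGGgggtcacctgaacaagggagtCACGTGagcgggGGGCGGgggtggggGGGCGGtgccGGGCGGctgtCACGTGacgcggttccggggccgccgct
The IRS2 stretch held 5 GC boxes and 1 insulin response element core, at a GC content of 76.4%. The IRS4 stretch held 2 GC boxes and no insulin response element core, at a GC content of 68%. The IGF2R stretch held 6 GC boxes and 3 E-boxes. Across 35116 promoters of this length, 42.6% held a GC box, 4.3% the insulin response element core and 6.34% an E-box, and the median GC content was 58%. Neither the FOXO core (TGTTTAC, found in 2.98% of promoters) nor a TATA box (TATAAA, found in 10.7%) occurred in any of the 8 stretches, both strands searched. These are matches of letters only, and binding of a factor was not measured.

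IGF2R, the clearance receptor for IGF2, had levels of 10.19, 9.65 and 10.08 on the circANRIL arrays and of 10.68, 10.49 and 10.61 on the vector control arrays. Every circANRIL array was below every vector control array, and the second circANRIL array was the lowest of all. The means were 9.97 ± 0.28 in circANRIL cells and 10.59 ± 0.10 in vector control cells (SD, n = 3 each), a difference of −0.62 with a standard error of 0.15, or a level 1.54-fold lower in circANRIL cells. Without circANRIL replicate 2 the difference was −0.46.

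INSR, the insulin receptor, had levels of 5.36, 4.92 and 4.77 on the circANRIL arrays and of 4.87, 4.41 and 5.05 on the vector control arrays. The arrays of both groups were interleaved, and the second vector control array did not detect the probe. The difference was 0.24 with a standard error of 0.20. IGF1R, the receptor through which both IGFs signal to IRS proteins, was read by 1 probe that was detected on none of the circANRIL arrays and on 2 of 3 vector control arrays. Its levels were 4.53, 4.39 and 4.51 on the circANRIL arrays and 4.58, 4.76 and 4.91 on the vector control arrays. Although the groups did not overlap, the bound set by the lowest detected level put IGF1R only at least 1.06-fold lower in circANRIL cells, a level at the edge of detection.

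EGFR had 4 probes. The brightest, for the full-length receptor transcript NM_005228, had levels of 6.96, 7.28 and 7.38 on the circANRIL arrays and of 6.29, 6.77 and 6.32 on the vector control arrays. All circANRIL arrays lay above all vector control arrays, with the second vector control array closest to them. The means were 7.20 ± 0.22 in circANRIL cells and 6.46 ± 0.27 in vector control cells (SD, n = 3 each), a difference of 0.75 with a standard error of 0.21, or 1.68-fold. The other probe that could be tested, for the transcript NM_201282 of a truncated receptor that lacks the kinase, had levels of 4.68, 4.79 and 4.69 on the circANRIL arrays and of 4.83, 4.66 and 4.95 on the vector control arrays. Its groups overlapped close to the detection limit, with a difference of −0.09 and a standard error of 0.16, so the 2 probes of EGFR did not share a direction. The remaining EGFR probes, for NM_201282 and NM_201284, were detected on no array.

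ERBB2, the ligandless partner receptor, had levels of 8.26, 7.85 and 7.84 on the circANRIL arrays and of 8.18, 8.07 and 7.91 on the vector control arrays by its 1 detected probe. The arrays of both groups covered nearly the same range, and the difference was −0.07 with a standard error of 0.18. Its other 2 probes were detected nowhere. ERBB3 had 3 probes, all near the detection limit. The probe of highest mean level, for the short transcript NM_001005915, was at 4.98, 4.36 and 5.14 on the circANRIL arrays and at 4.88, 4.61 and 4.63 on the vector control arrays. The second circANRIL array was the lowest of the 6, and the groups overlapped, with a difference of 0.12 and a standard error of 0.19. The ERBB3 probe for the full-length transcript NM_001982 had a difference of 0.15 with a standard error of 0.16, and the third ERBB3 probe was detected on 1 circANRIL array and no vector control array.

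**Figure D2:**
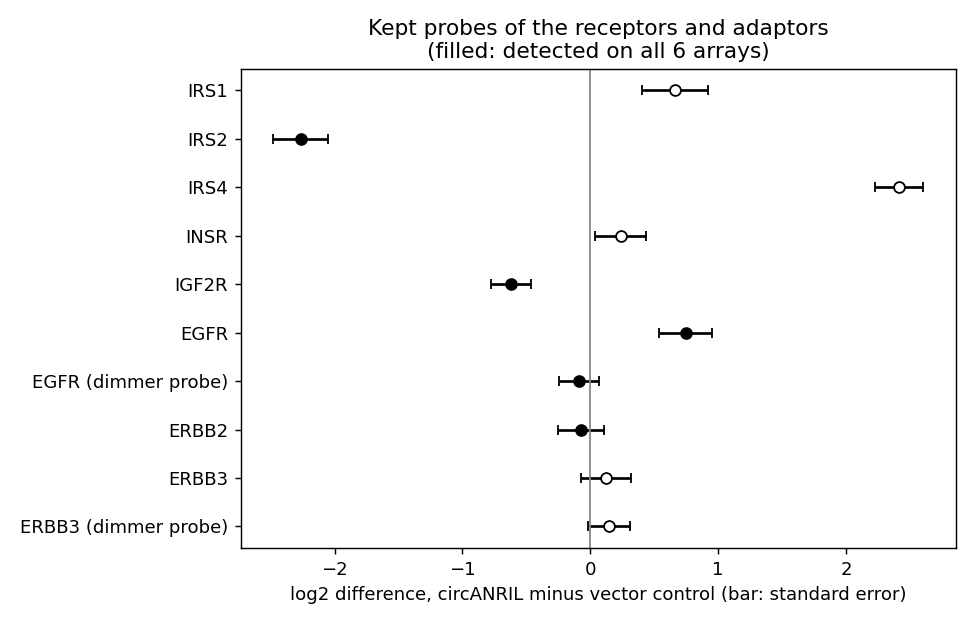
Difference of mean log2 level, circANRIL minus vector control, for the 10 tested probes of the receptors and adaptors, with bars for the standard error of the limma fit and filled points for probes detected on all 6 arrays. IRS2 at −2.27 and IRS4 at 2.42 are farthest from 0, and the dimmer EGFR probe at −0.09 lies apart from the brighter one at 0.75.

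These differences were next set beside those of neighbouring genes, given as a description with no test of the stretch. The 10 tested genes on each side of IRS2 on chromosome 13 had a median difference of −0.76, with 17 of 20 below 0, and the 223 tested genes of that chromosome had a median of −0.29. By limma, 14 of the 20 were lower and 1 higher, where 9.26% of all genes tested were lower. IRS2 itself, at −2.27, lay below every one of its 20 neighbours, of which the lowest was at −1.15. The nearest tested genes were COL4A1 and COL4A2, the chains of the common basement membrane collagen IV, on one side, and TNFSF13B, which encodes the B-cell factor BAFF, and ABHD13 on the other. COL4A1 averaged 8.82 ± 0.12 in circANRIL cells and 9.92 ± 0.15 in vector control cells (SD, n = 3 each), a difference of −1.10 (standard error 0.15, adjusted p = 0.000105 by limma). The difference was −1.10 for COL4A2 as well (standard error 0.19, adjusted p = 0.000847 by limma), while ABHD13 was at −0.54 and TNFSF13B, not called, at −0.12. The part of the neighbours' shared shift in the IRS2 difference was not tested.

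Around IRS4 on the X chromosome the 20 neighbours had a median difference of 0.91 and none below 0, against a median of 0.28 for the 435 tested genes of the X chromosome. Of these 20, 15 were higher and none lower by limma, where 11.4% of all genes tested were higher. IRS4, at 2.42, exceeded 19 of its 20 neighbours and lay under TSC22D3, a glucocorticoid-induced leucine zipper gene, at 6.73. The nearest tested genes were COL4A5 and COL4A6, further collagen IV chains, with NXT2, an mRNA export factor, and ACSL4, a fatty acid-activating enzyme. COL4A5 averaged 9.89 ± 0.22 in circANRIL cells and 8.24 ± 0.13 in vector control cells (SD, n = 3 each), a difference of 1.65 (standard error 0.16, adjusted p = 3.4e-06 by limma), and its second probe was at 1.64. COL4A6 was higher by 1.44 and ACSL4 by 1.67, and NXT2, not called, was at 0.46. Further COL4A6 probes, at −0.04 and 0.02, were detected on no array. The part of this shared shift in the IRS4 difference was not tested.

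The neighbours of the other genes had medians nearer 0. Around INSR the median was 0.27, with 5 higher and 1 lower of 20, against 0.24 for INSR itself. Of the genes beside INSR, the peroxisome factor PEX11G was higher by 1.36, and VAV1, ZNF557 and ARHGEF18, none of them called, were at 0.37, 0.05 and 0.27. Around EGFR the median was 0.31, with 4 higher and none lower of 20, and EGFR was at 0.75. Of its nearest tested genes the actin nucleator COBL was higher by 1.07, whereas the insulin receptor adaptor GRB10 at 0.44, LANCL2 at −0.47 and VOPP1 at −0.41 were not called. Around IGF2R the median was −0.13 with 2 higher and none lower, so that IGF2R at −0.62 lay below all 20. Medians were 0.04 around IRS1, −0.18 around ERBB2 and −0.21 around ERBB3.

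**Figure D3:**
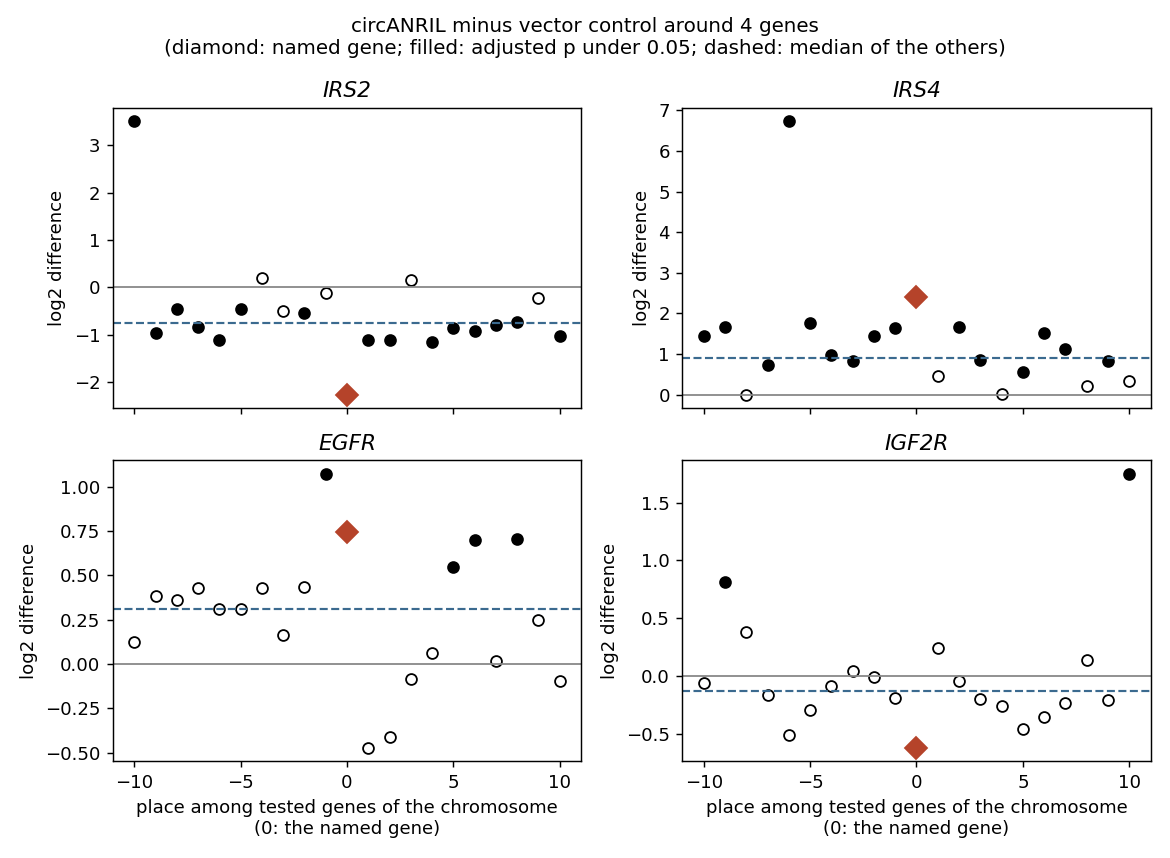
Log2 difference, circANRIL minus vector control, of the 10 tested genes on each side of IRS2, IRS4, EGFR and IGF2R, by place along the chromosome, with filled points for genes past an adjusted p of 0.05 by limma, a dashed line at the median of the 20 neighbours and a red diamond for the named gene. Neighbours lie mostly below 0 around IRS2 (median −0.76) and at or above 0 around IRS4 (median 0.91), and vertical axes differ.

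Other genes of the same signalling routes were read from lists set up by role. Below, rose and fell mean a level higher or lower in circANRIL lines than in vector control lines. The lists were drawn up with earlier results of these data known, so their counts are no independent evidence. Of 178 listed genes 162 were on the array as annotated and 127 could be tested, and 20 of these were higher and 12 lower in circANRIL cells, with a median difference of −0.01. Over all genes tested, 11.4% were higher and 9.26% lower.

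Among the ligands, 5 of 12 genes on the array could be tested, and 2 rose and none fell. NRG1, the neuregulin that binds ERBB3 and ERBB4, was at 7.63, 7.39 and 7.32 on the circANRIL arrays and at 4.47, 4.39 and 4.21 on the vector control arrays. It was detected on every circANRIL array and on no vector control array, and was at least 7.0-fold higher in circANRIL cells (adjusted p = 1.2e-08 by limma). With the authors' normalized values the NRG1 difference was 1.47 on the log2 scale, below that bound. A second NRG1 probe was at least 5.21-fold higher, and a probe for another transcript was at 0.21 and did not pass. NRG4, a ligand of ERBB4, rose by 0.64 (standard error 0.19, adjusted p = 0.026), a call lost without circANRIL replicate 1, 2 or 3 and without vector control replicate 2. ERBB4 and the insulin receptor-related receptor INSRR were not detected widely enough to be tested, and EGF at 0.32, HBEGF at 0.33 and TGFA at −0.12 did not pass.

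The next list held IGF-binding proteins, the proteases that cleave them and the inhibitors of these proteases. Of its 12 genes 6 were tested, and 4 rose and 1 fell, with a median of 0.75. STC1, a stanniocalcin that blocks the protease PAPPA, was at 8.80, 9.38 and 9.77 on the circANRIL arrays and at 6.49, 6.37 and 4.45 on the vector control arrays. For STC1 the third vector control array was far below the other 2 and not above background, and the difference was 3.55 (standard error 0.39, adjusted p = 1.1e-05). It was 2.89 without vector control replicate 3 and 2.41 with the authors' normalized values. STC2, the second stanniocalcin, rose by 1.48 (standard error 0.17, adjusted p = 1.4e-05). PAPPA, which frees IGF by cutting its binding proteins, fell by 1.45 (standard error 0.18, adjusted p = 3.7e-05), with levels of 4.47, 4.54 and 4.84 on the circANRIL arrays, 1 of them detected, and of 6.11, 6.14 and 5.97 on the vector control arrays. With the authors' normalized values the PAPPA difference was −0.54. The binding protein IGFBP5 rose by 0.70 (adjusted p = 0.015) and by 0.72 on its second probe, and its call was lost without circANRIL replicate 2 or 3 or without vector control replicate 3. With those 3 arrays left out in turn, 3, 3 and 2 genes of this list rose, and without vector control replicate 1 it was 5.

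Of the adaptors recruited to active receptors or to IRS proteins, 17 were tested, and 3 rose, 2 fell and 12 did not pass. GRB2, the adaptor that links receptors to RAS, fell by 0.77 (standard error 0.20, adjusted p = 0.015), while its second probe at −0.48 did not pass (adjusted p = 0.087). SH2B1, an adaptor of the insulin and leptin receptors, fell by 0.79. SHC2 rose by 0.90, NCK2 by 0.72 and GRB14, which inhibits the insulin receptor kinase, by 0.73, whereas second probes of SHC2 and GRB14, at 0.33 and 0.18, did not pass. Without circANRIL replicate 3 the calls of GRB2, SH2B1, NCK2 and GRB14 were lost, as were those of GRB2 and GRB14 without circANRIL replicate 2 and of GRB2 without vector control replicate 3. In the first case 1 adaptor rose and none fell.

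In the PI3-kinase, AKT, mTOR and FOXO list none of 30 tested genes rose and 4 fell, at a median of −0.26. INPP5D, the phosphatase SHIP1, was detected on no circANRIL array and on every vector control array and was at least 1.80-fold lower in circANRIL cells (adjusted p = 0.0010), with a log2 difference of −0.41 in the authors' normalized values. TBC1D4, the AKT substrate AS160 that governs glucose transporter traffic, fell by 0.72 (adjusted p = 0.0076). It lies on chromosome 13, whose median difference was −0.29. TSC2, a brake on mTOR complex 1, fell by 0.74 (adjusted p = 0.022), a call lost without circANRIL replicate 1 or 3 or vector control replicate 1. The remaining gene that fell was FOXO1, lower by 0.60 (adjusted p = 0.042 by limma) and also on chromosome 13. Without circANRIL replicate 1 or 3 or vector control replicate 1, 2 genes of this list fell, and 1 gene rose without circANRIL replicate 3 and 1 with second-brightest probes.

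In the RAS and ERK cascade 2 of 9 tested genes rose and 1 fell. RPS6KA2, the ERK-activated kinase RSK3, rose by 1.75 (standard error 0.23, adjusted p = 7.6e-05) and by 1.11 with the authors' normalized values, and it is also the outermost of the 20 genes around IGF2R. MAP2K1 rose by 0.44 (adjusted p = 0.041) and HRAS fell by 0.65 (adjusted p = 0.031). The calls of MAP2K1 and HRAS were lost without circANRIL replicate 2 or 3 or any 1 vector control replicate. Among inhibitors of receptor signalling 2 of 23 rose and 1 fell. DUSP6, the ERK phosphatase that ERK activity itself is known to induce, was at 7.27, 7.10 and 6.59 on the circANRIL arrays and at 5.03, 5.01 and 5.05 on the vector control arrays. The groups were far apart, with a difference of 1.95 (standard error 0.21, adjusted p = 8.1e-06). The DUSP6 difference was 0.92 with the authors' normalized values and 2.71 with a floored background. SPRY4, a further inhibitor of the RAS route, was detected on no vector control array and was at least 1.72-fold higher in circANRIL cells, with a log2 difference of 0.33 in the authors' normalized values. PHLDA3, a p53-induced inhibitor of AKT, fell by 0.72, which was lost without circANRIL replicate 2 or 3 or vector control replicate 1 or 2. Without either of these vector control arrays 3 inhibitors rose.

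Of genes that FOXO factors are known to induce, 5 of 16 tested rose and 1 fell, at a median of −0.03. Without circANRIL replicate 2 or 3 or vector control replicate 3 the number that rose was 3, and with a floored background or the methods' t-test it was 2. The number was 7 without circANRIL replicate 1 or vector control replicate 2, and 4 without vector control replicate 1. PDK4, a kinase that shuts off pyruvate dehydrogenase in fasting, was at 6.50, 6.40 and 6.62 on the circANRIL arrays and at 4.34, 4.52 and 4.33 on the vector control arrays. No vector control array detected it, and it was at least 3.65-fold higher in circANRIL cells (adjusted p = 5.7e-07), whereas its log2 difference with the authors' normalized values was 0.85, below that bound. KLF15 rose by 1.40 (adjusted p = 6.9e-05), and its difference was 0.58 with the authors' normalized values and 2.0 with a floored background. FBXO32, the atrophy ubiquitin ligase, rose 2.30-fold, was at a log2 difference of 0.57 with the authors' normalized values, and had a second probe at 0.06 that did not pass. SESN1, a sestrin that restrains mTOR complex 1, fell by 0.75 (adjusted p = 0.0024). IRS2 and INSR are also known FOXO targets, and stood at −2.27 and 0.24.

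A list of receptor chaperones, proteases that shed ERBB ligands and the RNA-binding proteins IGF2BP1, IGF2BP2 and IGF2BP3 held 10 tested genes. Of these 1 rose, IGF2BP3, and 1 fell, so no chaperone or protease of the list was called higher. IGF2BP3, an RNA-binding protein of IGF2 mRNA, rose by 0.51 and HSP90AB1, a chaperone of ERBB2 and other kinases, fell by 0.54, and both calls were lost without circANRIL replicate 2 or 3 or vector control replicate 3. In the mannose 6-phosphate route that IGF2R serves, 1 of 11 rose and 1 fell. NAGPA, the enzyme that uncovers the mannose 6-phosphate tag, was at 7.01, 6.97 and 6.65 on the circANRIL arrays and at 8.11, 8.12 and 8.11 on the vector control arrays, and fell by 1.24 (standard error 0.18, adjusted p = 0.000218). All circANRIL arrays lay below all vector control arrays, as they did for IGF2R. VPS29, of the retromer that returns IGF2R from endosomes, rose by 0.52, a call lost without circANRIL replicate 1 or 2 or vector control replicate 3. Without vector control replicate 1, 2 genes of this route fell.

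**Figure D4:**
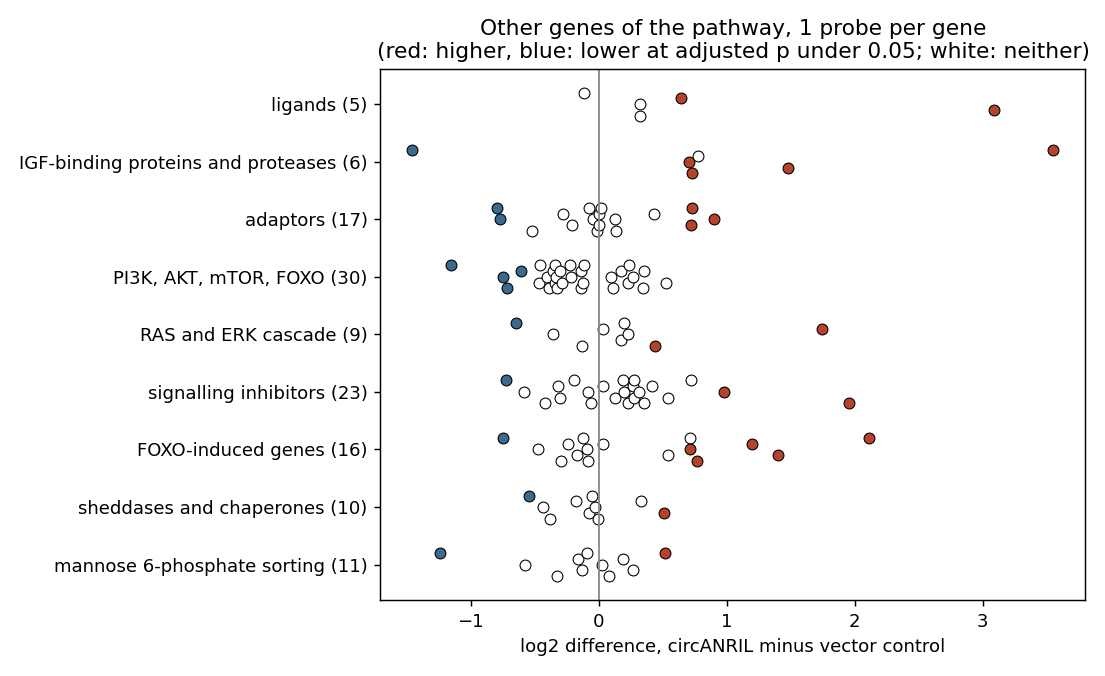
Log2 difference, circANRIL minus vector control, of 127 other pathway genes by role, 1 probe per gene, with the number tested in brackets, red for higher and blue for lower at an adjusted p under 0.05 by limma and white for neither. NRG1 at 3.09 and STC1 at 3.55 lie farthest right, PAPPA at −1.45 farthest left, and no gene of the PI3-kinase list is red. The row of IGF-binding proteins and proteases also holds STC1 and STC2. That of sheddases and chaperones also holds IGF2BP1, IGF2BP2 and IGF2BP3.

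Over the 6 arrays the probes most like IRS4 in log2 level were those of SH3BGR, ARHGEF5 and DUSP26, each with a Pearson r of 0.999, and 447 probes had an r over 0.95. All 3 were detected on every circANRIL array and on no vector control array, as IRS4 nearly was. For IRS2 they were ZRANB1 (r = 0.999), MYO10 (0.998) and ACSS1 (0.997), with 285 probes over 0.95. These genes differed less than IRS2, by −0.40, −0.96 and −0.66 on the log2 scale. Such an r is given as a description, because the 6 points fall into 2 groups and a gap between groups alone gives a high value.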

How the data were processed

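RNA of 6 HEK-293 samples was hybridised to Illumina HumanHT-12 v4 BeadChips, 3 arrays from circANRIL-overexpressing and 3 from vector control lines. The authors preprocessed bead-level data in GenomeStudio (version 2011.1), and deposited, per probe and array, a background-subtracted intensity that was not normalized between arrays, with 11666 to 12397 negative values per array. The deposited detection p-value of each probe was used as given. A second deposited table of normalized intensity values served as an alternative.

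From these signals log2 levels were made in R 4.3.3 by the neqc function (limma, version 3.58.1), which corrects background by normexp, adds an offset of 16 and quantile-normalizes. Probes detected (p under 0.05) on 3 or more arrays were fitted with lmFit and eBayes with an intensity trend, and p-values were adjusted by Benjamini-Hochberg over all 21191 probes. Adjusted p-values in the text are from this fit. Genes were represented by the tested probe of highest mean level. Symbols came from the array annotation, matched to the GRCh38.p14 gene table for 30071 of 30110 probes with 1 symbol, and gene order and promoters were taken from RefSeq of that assembly. Where a probe was detected on no array of a group, the fold is given as a bound, computed with each array's lowest detected signal in that group.

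The 9 genes and the pathway lists were chosen with earlier results of these data known. Named genes are all probes of the 9 genes, up to 3 genes per pathway list and direction with the smallest p among those called, the 3 probes most like the highest and the lowest gene, and the tested genes nearest to a gene whose neighbours' median differed from that of all genes by over 0.25. Other genes named in the text were chosen after their values were seen. The labels do not say that the arrays came from separate cultures, and the methods name at least 3 lines per construct. The p-values therefore reflect only how far these arrays spread, and that spread may be technical. Different stable lines carried circANRIL and the vector control, so the construct cannot be told apart from differences between selected lines. No slide or scan batch was given in the sources used here. With 3 arrays per group, their number limits the precision. Replicate numbers were shared between groups, but same-numbered arrays deviated together only at correlations of 0.003, 0.08 and −0.13. No pairing by number was thus visible, though 3 arrays per group cannot settle this and the labels name none. An exact permutation test of 3 against 3 arrays cannot give a two-sided p below 0.1 and was not used.

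The alternatives were median scaling, a floored background, the authors' normalized values, no filter and a stricter filter on dim probes, no intensity trend, the methods' t-test, the replicate number as a block, the second-brightest probe, other numbers of neighbours and leaving out each array. The methods name this t-test for group comparisons in general. For the arrays, they took transcripts changed beyond 2-fold in either direction into pathway analysis.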

Additional observations from a re-analysis of the deposited data

How the results depend on the processing

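The differences of the 8 genes with a tested probe were recomputed, 100 values in all, and 5 moved by an SD or more. These were IRS2 at −1.73, IRS4 at 1.06 and EGFR at 0.45 with the authors' normalized values, IRS4 at 2.78 with a floored background, and EGFR at −0.091 by its second-brightest probe. The sign changed for 2 of the 100, that EGFR value and ERBB3 at −0.03 without circANRIL replicate 3. Part of the 100 values could not move, so 5 of 100 is no measure of stability. The filters and the replicate block left each difference as it was. The second-brightest probe did so for genes with 1 tested probe. With 5 neighbours on each side in place of 10, the median around IRS2 was −0.52.

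Of all probes, 1965 were higher and 1788 lower. With a floored background 824 were higher and 703 lower, and with the methods' t-test 281 were higher and 203 lower after Benjamini-Hochberg adjustment. Leaving out each array in turn gave 1228 to 1801 higher and 907 to 1511 lower. Of the pathway genes, 20 were higher and 12 lower. The floored background gave 10 higher and 4 lower, and the methods' t-test 4 higher and 3 lower. Leaving out each array gave 12 to 21 higher and 5 to 10 lower. Without circANRIL replicate 2, circANRIL replicate 3 and vector control replicate 3 the higher pathway genes were 12, 13 and 13 and the lower ones 7, 5 and 8. Of 28 named pathway genes, 15 stayed called without each array in turn, and 7 under every setting in which they were measured, namely NRG1, PAPPA, DUSP6, PDK4, KLF15, SESN1 and NAGPA. The causes were not tested.

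With the replicate number as a block, 1894 probes were higher and 1637 lower, and 20 pathway genes were higher and 11 lower. Since no pairing of same-numbered arrays is named or was visible, this fit is given as an alternative only. Probes near background, such as those of INSR, ERBB3, IGF1R and of IRS4 in vector control cells, carry little information on the size of a difference.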

Other observations

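Each of the 3 receptor substrate genes lies close to a pair of collagen IV genes, an arrangement noticed after the values were seen. Next to IRS2, which stood at a log2 difference of −2.27, COL4A1 and COL4A2 were each at −1.10, and next to IRS4, higher by 2.42, COL4A5 and COL4A6 were higher by 1.65 and 1.44. Other genes of these stretches differed by as much, such as NAXD at −1.15 around IRS2 and MID2 at 1.77 around IRS4. The medians of the 20 neighbours were −0.76 around IRS2 and 0.91 around IRS4. Next to IRS1, whose groups overlapped at a difference of 0.66, COL4A4 was detected on all 3 circANRIL arrays and on no vector control array. Its levels were 5.19, 5.75 and 5.64 on the circANRIL arrays and 4.30, 4.28 and 4.31 on the vector control arrays, at least 1.85-fold higher in circANRIL cells (adjusted p = 0.000160 by limma). COL4A3, its partner there, was detected on no array. Collagen IV chains are basement membrane proteins.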
